A study of Mus musculus with 6 samples.

Results

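The nuclear-encoded genes of the mitochondrial respiratory chain were followed in microglia, the resident macrophages of the brain, purified from the cerebellum of Fmr1 knock out mice, a model of fragile X syndrome. Members were chosen by gene symbol alone: symbols that begin with Nduf followed by a, b, c, s or v, the 4 succinate dehydrogenase genes, and symbols that begin with Uqcr, Cox4 to Cox8 or Atp5, with at least 10 counts summed over the libraries and with pseudogene symbols left out. This gave 95 of the 23491 genes in the table: 40 complex I genes including copies, 8 Ndufaf assembly factors, 4 complex II genes, 8 complex III genes, 18 complex IV genes and 17 complex V genes. Ndufa4 and its relative Ndufa4l2 carry complex I symbols but were counted with complex IV, where the protein sits. Older symbols are used as the table gives them, so Atp5a1 and Atp5b are the genes now called Atp5f1a and Atp5f1b.

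There were 6 RNA-seq libraries in 2 groups of 3. Both groups carried the Fmr1 knock out. One had received saline (called sham in the sample titles) and the other an intraperitoneal injection of poly(I:C), a synthetic double-stranded RNA that mimics viral infection. Microglia were taken with CD11b magnetic beads after Percoll removal of myelin, and CD11b is also carried by neutrophils, monocytes and other macrophages. The labels give neither the dose of poly(I:C), nor the time to tissue collection, the age or the sex of the mice. They do not say whether the 3 libraries of a group came from separate animals either, so every p-value rests on a spread that could be partly or wholly technical. No library of wild-type mice was analysed here, so nothing below compares genotypes.

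As background, the respiratory chain passes electrons from NADH (complex I) and succinate (complex II) through coenzyme Q, complex III and cytochrome c to oxygen at complex IV, and complex V uses the resulting proton gradient to make ATP. Complexes I, III, IV and V are built from subunits of both genomes, with the catalytic core of complex I partly encoded by mitochondrial DNA, while all complex II subunits are nuclear-encoded. In macrophages and microglia, inflammatory activation is known to go with shifts between oxidative phosphorylation and glycolysis.

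Depth was even, with library totals of 33710545 to 34899835 counts. Levels are given as CPM, read counts scaled to a common library total with TMM factors, and 3 counts, taken as the floor, correspond to 0.0860 to 0.0890 CPM before that scaling. Of 12 genes of the type I interferon response, 10 were called higher after poly(I:C) in edgeR (adjusted p under 0.05), with a median log2 difference of 3.46, so the treatment labels match the libraries. Microglial markers summed to 30270 to 44161 CPM and the neuron markers to 1.66 to 7.90 CPM, so the cells carried the labelled type's markers. Single libraries stood apart in other cells' markers, and some of these markers also differed between the groups. Saline library 1 had 21498 CPM of neutrophil markers, against 2528 and 2436 CPM in saline libraries 2 and 3. All 12 of these markers were highest there among the saline libraries. The poly(I:C) libraries 1 to 3 had 2351, 497.8 and 586 CPM of them. Saline library 2 had 444 CPM of erythroid markers, against 23.8 to 122 CPM in the other 5. All 10 choroid plexus markers were highest there among the saline libraries. Poly(I:C) library 1 had 19428 CPM of choroid plexus markers, against 4010 to 9343 CPM in the other 5. All 10 were highest there among the poly(I:C) libraries, and it had the lowest microglial marker sum. Endothelial and mural markers summed to 398 CPM in saline library 2 and 442 CPM in poly(I:C) library 1, against 176 to 248 CPM elsewhere. Between the groups, the median log2 difference (poly(I:C) minus saline) was -2.82 for the 12 neutrophil markers, all below 0. It was -2.48 for the 6 erythroid markers (5 below 0) and 1.23 for the 10 choroid plexus markers (9 above 0). None of these markers was called by edgeR. In bulk RNA, fewer cells of a type and less RNA per cell cannot be told apart.

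No respiratory chain gene passed the test after poly(I:C). Of the 95 members 93 had enough counts to be tested, and edgeR's quasi-likelihood test called 0 higher, where 0.883% of all 14727 tested genes were called, and 0 lower, where 0.0747% were (Benjamini-Hochberg adjusted p under 0.05). At an unadjusted p under 0.05 there were 5 members on the higher side (5.38%, against 10.5% of all genes) and 5 on the lower side (5.38%, against 10.8%). The 3 poly(I:C) libraries were all above the 3 saline libraries for 11 members (11.8%, against 14.0% of all genes) and all below them for 5 (5.38%, against 14.3%). Each of these shares was near or under that of all genes. The other 2 tools run made some calls. DESeq2 called 1 member lower, Cox7a2l (adjusted p = 0.0286), in a fit that called 3.92% of all genes higher and 3.84% lower. The limma-voom fit with quality weights called 3 members higher (Atp5md, Cox7b and Ndufc1) and 5 lower (Atp5d, Cox7a2l, Ndufs7 and Uqcrc1 among them), while calling 8.61% of all genes higher and 10.9% lower.

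The differences were small in most members. The median log2 difference (poly(I:C) minus saline) was 0.05 over the 93 members and 0.01 over all genes tested, with 56 members above and 37 below 0. The 95% interval of the difference lay within 2-fold in either direction for 83 members and within 1.5-fold for 57, so for most members a change of 2-fold or more lay outside the interval. By complex, the median was 0.02 for the complex I subunits, -0.05 for complex II, 0.02 for complex III, 0.07 for complex IV and 0.05 for complex V, with 0.17 for the Ndufaf assembly factors. The medians depend on single libraries: without saline library 3 the median over all members was -0.07, with 39 above and 54 below 0, and that of complex IV was -0.14.

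**Figure D1:**
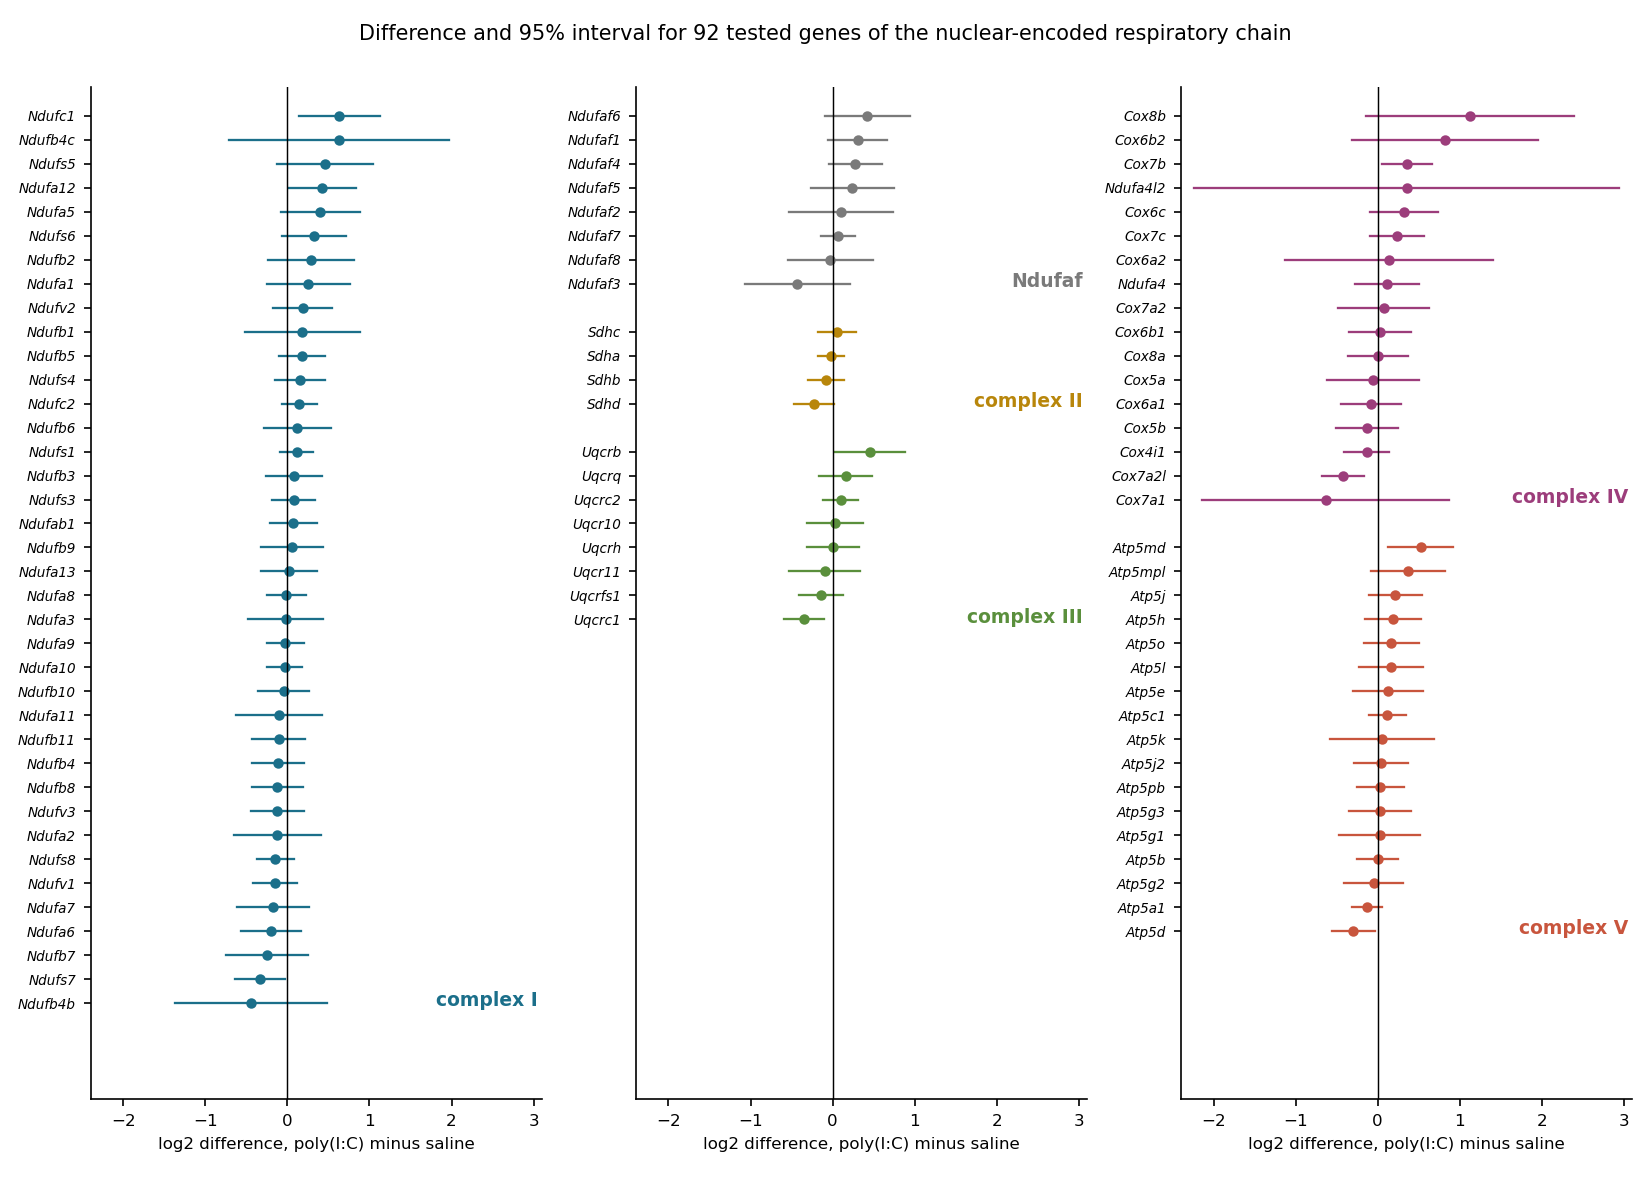
Log2 difference (poly(I:C) minus saline, horizontal axis) of 92 of the 93 tested members, grouped by complex and ordered by value, with the 95% interval from edgeR as a line. Most points lie within 0.5 of 0, the long intervals belong to tissue isoforms and gene copies with few counts, and the intervals of 9 of those drawn exclude 0 before adjustment for multiple testing.

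Members differed far more from each other in level than between the groups. Per kilobase of transcript, the median level was 43.9 CPM over the 91 members with a length. Complex V was highest by median (72.9 CPM per kilobase), followed by complex II (62.5), complex III (59.9), complex IV (47.9) and the complex I subunits (38.2), with the Ndufaf factors lowest (6.24). The ranges of the 5 complexes overlapped widely. The highest single members were Atp5b (225 CPM per kilobase), the catalytic beta subunit of ATP synthase, Cox4i1 (178), the common isoform of cytochrome c oxidase subunit 4, and Atp5a1 (155), the alpha subunit. The lowest were the tissue isoform genes Cox4i2 (0.179) and Ndufa4l2 (0.238).

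The promoters of 3 members are shown because these genes had some of the largest differences among well-expressed members, in both directions, and hold motifs of factors known for respiratory chain genes. Each sequence runs 5′ to 3′ on the gene's strand from 250 bases before to 50 bases after the RefSeq start, on build GRCm38.p6. The deposited counts were made on GRCm39, so these coordinates do not apply to that build. Capitals mark matches on either strand to the motifs searched: GCGCANGCG for NRF1, CCGGAAG for the ETS factor GABP, and AAGATGGC for YY1. In Uqcrc1 (chr9:108936398-108936697, plus strand) the capitals hold 3 NRF1 matches, of which the last 2 overlap on opposite strands. Ndufc1 (chr3:51408906-51409205, minus strand) and Ndufs7 (chr10:80249199-80249498, plus strand) each hold 1 YY1 match close to the start.
Uqcrc1: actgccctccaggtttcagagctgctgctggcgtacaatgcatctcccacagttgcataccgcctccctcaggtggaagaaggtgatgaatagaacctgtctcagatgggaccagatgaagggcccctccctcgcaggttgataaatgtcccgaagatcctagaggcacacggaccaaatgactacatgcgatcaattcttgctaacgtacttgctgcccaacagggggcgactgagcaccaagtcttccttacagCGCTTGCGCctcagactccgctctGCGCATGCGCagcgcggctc
Ndufc1: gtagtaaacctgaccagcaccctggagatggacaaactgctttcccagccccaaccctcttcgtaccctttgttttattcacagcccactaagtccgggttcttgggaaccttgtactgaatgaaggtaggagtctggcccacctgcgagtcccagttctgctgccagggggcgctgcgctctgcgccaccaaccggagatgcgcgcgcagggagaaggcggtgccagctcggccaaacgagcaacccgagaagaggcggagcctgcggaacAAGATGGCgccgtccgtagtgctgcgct
Ndufs7: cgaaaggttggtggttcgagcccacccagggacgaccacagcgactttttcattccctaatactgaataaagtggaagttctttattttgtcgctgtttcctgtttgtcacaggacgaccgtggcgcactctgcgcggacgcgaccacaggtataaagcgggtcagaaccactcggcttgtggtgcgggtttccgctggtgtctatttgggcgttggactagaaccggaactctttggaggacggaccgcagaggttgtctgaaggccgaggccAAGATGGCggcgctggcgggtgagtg
The motifs and these 3 promoters were chosen after values had been seen. Of the members 77 had a RefSeq promoter by symbol. The NRF1 motif was in 22 of them (28.6%), against 13.9% of the 11432 tested genes with a promoter and 7.03% of all 27025. The YY1 motif was in 11 (14.3%, against 4.89% and 3.19%) and the GABP motif in 19 (24.7%, against 18.6% and 9.93%). A match is a description of letters and not a binding site. The median log2 difference was 0.01 for the 22 members with an NRF1 motif and 0.03 for the 55 without, and 0.03 for both the 11 with a YY1 motif and the 66 without. It was also 0.03 for both the 19 with a GABP motif and the 58 without. The messages of the factors did not pass the test. Yy1 had a log2 difference of -0.27 (SE 0.08, edgeR adjusted p = 0.159) and Nrf1 of -0.34 (edgeR adjusted p = 0.177). The GABP genes Gabpa and Gabpb1 lay at 0.11 and 0.01 (edgeR adjusted p = 0.530 and 0.979).

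Complex I oxidises NADH. Its 7 nuclear-encoded core subunits carry the flavin and iron-sulfur clusters, and their median log2 difference was -0.15, with 3 above and 4 below 0. The 30 accessory subunits, which surround and stabilise the core, had a median of 0.04, with 16 above and 14 below. None of either kind was called by edgeR.

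Ndufs7, which holds the last iron-sulfur cluster before quinone, stood at 39.4, 38.7 and 33.0 CPM in saline and at 27.3, 33.5 and 27.3 CPM after poly(I:C). The groups overlapped, as poly(I:C) library 2 lay above saline library 3, and the log2 difference was -0.33 (SE 0.13, edgeR adjusted p = 0.209). Ndufv1, the NADH-binding flavoprotein, and Ndufs8 both lay at -0.15, Ndufs3 at 0.08 and Ndufv2 at 0.18. Ndufs1, the largest core subunit, had 61.9 ± 2.58 CPM in saline and 67.0 ± 4.52 CPM after poly(I:C) (SD, n = 3 each), which is a log2 difference of 0.11 with a 95% interval from -0.09 to 0.31.

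Among the accessory subunits, Ndufc1, a small membrane-arm protein, had the largest difference of the complex's well-expressed members (mean of at least 5 CPM). It stood at 8.64, 7.48 and 6.13 CPM in saline and at 13.7, 10.8 and 9.92 CPM after poly(I:C). Every poly(I:C) library lay above every saline library, and in each group library 1 was highest and library 3 lowest. The log2 difference was 0.63 (SE 0.21, edgeR adjusted p = 0.185). Ndufa12, an accessory subunit of the peripheral arm, stood at 19.0, 15.1 and 14.9 CPM in saline and at 26.1, 21.5 and 18.3 CPM after poly(I:C), so that the lowest poly(I:C) library fell within the saline range (log2 difference 0.43, SE 0.17, edgeR adjusted p = 0.227). Ndufs5 had 4.48 ± 0.57 CPM against 6.16 ± 1.38 (SD, n = 3 each), a log2 difference of 0.46 (edgeR adjusted p = 0.309).

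Ndufab1, the mitochondrial acyl carrier protein that also serves fatty acid synthesis, was nearly level, at 21.6 ± 1.40 CPM and 22.7 ± 2.54 CPM (SD, n = 3 each). Ndufa5, Ndufc2 and Ndufs6 were the other accessory subunits whose libraries did not overlap, with log2 differences of 0.40, 0.14 and 0.32. The remaining accessory subunits lay between -0.24 for Ndufb7 and 0.28 for Ndufb2. Of the gene copies, Ndufb4b (-0.44) and Ndufb4c (0.62) had few counts in every library, up to 34 and 22, and Ndufs6b, with 5 to 13 counts, was not tested. Reads of such copies may be shared with Ndufb4 and Ndufs6, so their levels are uncertain.

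The 8 Ndufaf genes encode factors that assemble complex I without staying in it. In 3 of them, Ndufaf1, Ndufaf4 and Ndufaf6, all poly(I:C) libraries lay above all saline libraries, as they did for 14.0% of all genes tested. Ndufaf1, which helps build the membrane arm, stood at 8.52, 9.18 and 7.93 CPM in saline and at 11.1, 10.6 and 10.03 CPM after poly(I:C) (log2 difference 0.31, SE 0.15, edgeR adjusted p = 0.275). Ndufaf4 stood at 12.8, 12.7 and 13.8 CPM against 16.9, 13.8 and 16.8 CPM (log2 difference 0.28). Poly(I:C) library 2 lay barely above saline library 3 there. Ndufaf6 stood at 4.44, 6.32 and 5.57 CPM against 8.21, 6.35 and 7.36 CPM (log2 difference 0.42), again with poly(I:C) library 2 barely above the saline range.

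Ndufaf3 went the other way, with 13.9, 13.3 and 9.29 CPM in saline and 6.65, 11.97 and 8.54 CPM after poly(I:C). The groups overlapped and the log2 difference of -0.43 (SE 0.27) had an edgeR adjusted p of 0.368. Ndufaf2, Ndufaf5, Ndufaf7 and Ndufaf8 lay between -0.03 and 0.24. With 8 genes of low level, the class median of 0.17 moved with the setting: it was 0.11 without poly(I:C) library 1 and 0.06 with the choroid plexus marker score as a covariate.

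Complex II, succinate dehydrogenase, also works in the tricarboxylic acid cycle, and its substrate succinate is known as a metabolic signal in activated macrophages. Its 4 genes had the smallest standard errors of the classes (median 0.095). Sdha, the flavoprotein that oxidises succinate, stood at 212, 207 and 206 CPM in saline and at 207, 206 and 206 CPM after poly(I:C). All 6 libraries lay close together and the groups overlapped, and the log2 difference of -0.01 had a 95% interval from -0.17 to 0.14. Sdhb, the iron-sulfur subunit, stood at 66.3, 66.5 and 64.8 CPM against 56.5, 69.1 and 61.7 CPM (log2 difference -0.08), with wider spread after poly(I:C).

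The 2 membrane anchors lay on opposite sides of 0. Sdhc had 54.9 ± 2.58 CPM in saline and 57.1 ± 5.44 CPM after poly(I:C) (SD, n = 3 each). Sdhd stood at 68.8, 62.5 and 54.2 CPM in saline and at 51.6, 54.5 and 52.5 CPM after poly(I:C). The poly(I:C) libraries of Sdhd lay close together at the level of the lowest saline library, and the log2 difference was -0.23 (SE 0.10, edgeR adjusted p = 0.258). Of the 4 complex II assembly factors, Sdhaf4 had a log2 difference of 0.38 and Sdhaf1 of -0.34 (edgeR adjusted p = 0.240 and 0.478), both without overlap between the groups.

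Complex III passes electrons from quinol to cytochrome c. Uqcrc1, a core protein on its matrix side, had the second smallest p of all members. It stood at 142, 136 and 129 CPM in saline and at 96.2, 120 and 104 CPM after poly(I:C). All poly(I:C) libraries lay below all saline libraries, and poly(I:C) library 1 was lowest. The mean was 136 ± 6.56 CPM against 107 ± 12.3 (SD, n = 3 each), which is 1.27-fold higher in saline (log2 difference -0.35, SE 0.10, edgeR adjusted p = 0.164). Its partner core protein Uqcrc2 lay on the other side of 0 (0.10, 95% interval -0.11 to 0.32).

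Uqcrb, a small subunit at the quinone site, stood at 29.8, 25.2 and 19.8 CPM in saline and at 39.7, 33.6 and 29.6 CPM after poly(I:C). The highest saline library lay just above the lowest poly(I:C) library, and the log2 difference was 0.46 (SE 0.18, edgeR adjusted p = 0.217). Uqcrfs1, the Rieske iron-sulfur protein, had 37.9 ± 2.97 CPM against 34.4 ± 3.53 (SD, n = 3 each), a log2 difference of -0.14. The other 4 genes, Uqcr10, Uqcr11, Uqcrh and Uqcrq, lay between -0.10 and 0.16. Cyc1, which encodes cytochrome c1 and falls outside the symbol rule, stood at 76.0, 75.6 and 66.2 CPM against 58.7, 65.1 and 56.4 CPM, with all poly(I:C) libraries below the saline ones (log2 difference -0.27, SE 0.10, edgeR adjusted p = 0.194).

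Complex IV, cytochrome c oxidase, reduces oxygen. Cox7a2l, which joins complexes III and IV into supercomplexes, had the smallest p of all members. It stood at 82.1, 64.6 and 72.1 CPM in saline and at 51.0, 55.1 and 57.3 CPM after poly(I:C). All poly(I:C) libraries lay below all saline libraries, and saline library 1 was highest. The mean was 73.0 ± 8.79 CPM against 54.5 ± 3.17 (SD, n = 3 each), 1.34-fold higher in saline, with a log2 difference of -0.42 (SE 0.11, edgeR adjusted p = 0.142).

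Cox7b, a structural subunit needed for assembly, stood at 38.6, 33.1 and 29.3 CPM in saline and at 46.5, 43.4 and 39.4 CPM after poly(I:C). The groups did not overlap, the lowest poly(I:C) library being just above the highest saline library (log2 difference 0.36, SE 0.13, edgeR adjusted p = 0.199). Cox7c also showed no overlap (0.24, edgeR adjusted p = 0.332). Cox4i1, Cox5a and Cox5b lay nearer 0: Cox4i1 had 139 ± 17.0 CPM against 126 ± 10.5, Cox5a 25.9 ± 8.20 against 24.9 ± 4.03, and Cox5b 35.6 ± 6.25 against 32.6 ± 3.78 (SD, n = 3 each). Their log2 differences were -0.14, -0.06 and -0.13. The other nuclear subunits, Cox6a1, Cox6b1, Cox6c, Cox7a2, Cox8a and Ndufa4, lay between -0.08 and 0.32.

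Several complex IV subunits have a second gene known from muscle, lung, testis or low oxygen. These isoform genes had low counts in every library, and none was called. Cox8b had 15, 18 and 6 counts in saline and 38, 20 and 30 after poly(I:C), and its log2 difference of 1.13, the largest of all members, had a 95% interval from -0.14 to 2.40 (edgeR adjusted p = 0.265). Cox6b2 had 118, 127 and 57 counts against 299, 104 and 146, where poly(I:C) library 1 alone was high (0.82, interval -0.32 to 1.95). Cox7a1 had 27, 25 and 9 counts against 6, 18 and 16 (-0.63, interval -2.14 to 0.87), Cox6a2 had 33 to 117 counts and Ndufa4l2 1 to 16. Cox4i2, the isoform tied to low oxygen, had 1, 2 and 1 counts in saline and 12, 9 and 2 after poly(I:C) and was not tested.

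Per kilobase, the common isoforms were far above these. Cox4i1 stood at 178 CPM per kilobase and Cox4i2 at 0.179, Cox6a1 at 77.2 and Cox6a2 at 3.22, Cox6b1 at 140 and Cox6b2 at 9.46, Cox7a2 at 41.2 and Cox7a1 at 1.26, Cox8a at 105 and Cox8b at 1.71, and Ndufa4 at 85.1 and Ndufa4l2 at 0.238. The order of common over tissue isoform was the same for all 6 pairs. A further relative of Ndufa4, AA467197, is known to take its place in inflamed macrophages. It is no member by symbol and had 303, 45 and 30 counts in saline and 39, 14 and 7 after poly(I:C). Saline library 1, which was highest in the neutrophil markers, was far above the other 5. The part of neutrophils in this difference was not tested (log2 difference -2.72, edgeR adjusted p = 0.219).

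Complex V, the ATP synthase, has a catalytic F1 head, a membrane ring of c subunits, a peripheral stalk and small membrane subunits. The 2 main head subunits were level or nearly so. Atp5b stood at 472, 427 and 396 CPM in saline and at 472, 411 and 412 CPM after poly(I:C), with means of 432 ± 38.0 and 432 ± 34.87 (SD, n = 3 each) and a 95% interval of the log2 difference from -0.25 to 0.25. Atp5a1 stood at 412, 398 and 393 CPM against 384, 356 and 359 CPM. Its poly(I:C) libraries all lay below the saline ones, by a small amount (log2 difference -0.13, SE 0.08, edgeR adjusted p = 0.350).

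Atp5d, the delta subunit of the head's central stalk, stood at 85.6, 75.8 and 68.2 CPM in saline and at 61.3, 67.4 and 58.0 CPM after poly(I:C). The groups did not overlap, although poly(I:C) library 2 nearly reached the lowest saline library (log2 difference -0.30, SE 0.11, edgeR adjusted p = 0.205). The 3 genes that encode the same c-ring protein, Atp5g1, Atp5g2 and Atp5g3, lay at 0.02, -0.05 and 0.03. The 4 peripheral stalk genes were all above 0, between 0.03 and 0.22, with a median of 0.18, and the 5 small membrane subunits were all above 0 with a median of 0.16. Of all 14727 genes tested, 7520 were above 0. Saline library 3 was the lowest saline library for all 4 and all 5 of these genes, with median deviations from the mean over 6 libraries of -0.33 and -0.43 on the log2 scale.

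Among the membrane subunits, Atp5md, a small protein linked to dimers of the synthase, stood at 14.9, 14.9 and 11.2 CPM in saline and at 22.6, 17.9 and 18.6 CPM after poly(I:C). All poly(I:C) libraries lay above the saline ones, and the mean was 1.44-fold higher (log2 difference 0.53, SE 0.17, edgeR adjusted p = 0.177). Atp5mpl stood at 15.7, 14.9 and 11.5 CPM against 21.5, 18.1 and 14.8 CPM, with overlap (log2 difference 0.37, edgeR adjusted p = 0.292). Atpif1, the inhibitor of the synthase, which the symbol rule does not take in, had 37.6 ± 2.31 CPM against 39.7 ± 5.30 (SD, n = 3 each).

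**Figure D2:**
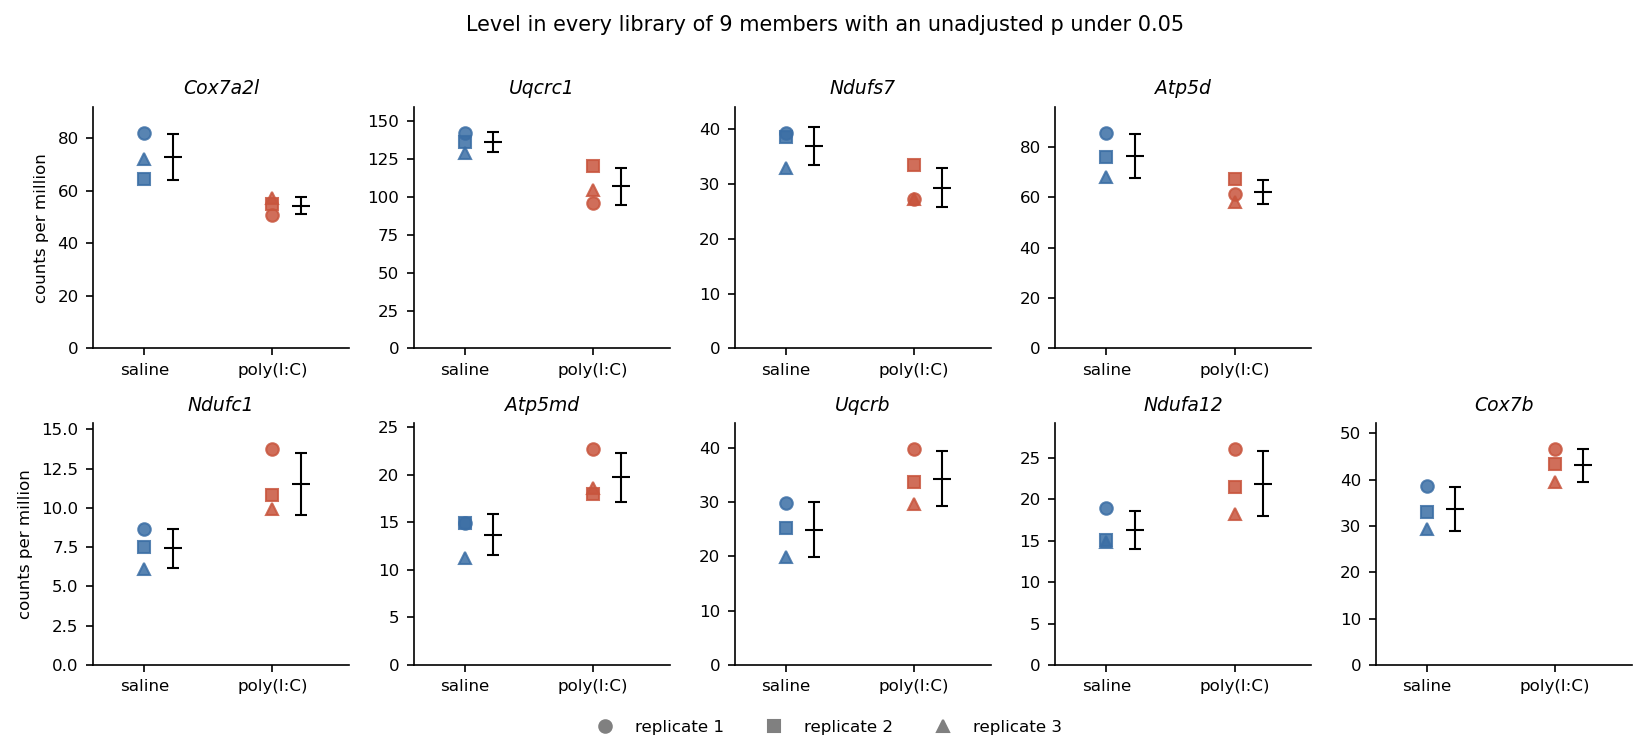
CPM (vertical axis, from 0) in each library of 9 of the 10 members with an unadjusted p under 0.05, with the mean and SD of the group (n = 3) beside the points. Top row: 4 members lower after poly(I:C), where Ndufs7 overlaps between the groups. Bottom row: the 5 members higher, where Uqcrb and Ndufa12 overlap between the groups. In these 5, replicate 1 is highest in both groups and replicate 3 lowest in most panels.

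Members moved together from library to library within each group. The median deviation from a gene's own mean of log2 (CPM + 0.5) was 0.13, 0.01 and -0.23 in saline libraries 1 to 3 and 0.12, 0.07 and -0.09 in poly(I:C) libraries 1 to 3. Summed over the 95 members, the level was 4508, 4208 and 3736 CPM in saline and 4280, 4166 and 3866 CPM after poly(I:C). The sums of the 2 groups overlapped fully, and the spread within each group was wider than the gap between them. Saline library 3 was the lowest saline library for 81 of 93 members (87.1%), against 28.4% of all genes tested, and poly(I:C) library 3 was the lowest of its group for 59 (63.4%, against 20.6%).

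The shift was uneven across the chain. In saline library 3 the median deviation was -0.34 for complex IV, -0.30 for complex V, -0.26 for complex III, -0.18 for the complex I subunits and -0.04 for complex II. Medians also differed within complexes I and V. They were -0.02 for the complex I core against -0.20 for its accessory subunits. For complex V they were -0.12 for the F1 head against -0.43 for the small membrane subunits. The head set also holds Atp5e, with a transcript of 421 bases, at 17.7 CPM there against 28.8 and 24.2 CPM in saline libraries 1 and 2. The Ndufaf factors did not share the pattern, with saline library 3 lowest for 37.5% of them. Other short housekeeping genes did so in part. Saline library 3 was lowest for 55.1% of 78 mitochondrial ribosomal protein genes (median deviation -0.08) and for 61.6% of 86 cytosolic ribosomal protein genes (-0.11), but the latter were far above in saline library 1 (0.33).

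**Figure D3:**
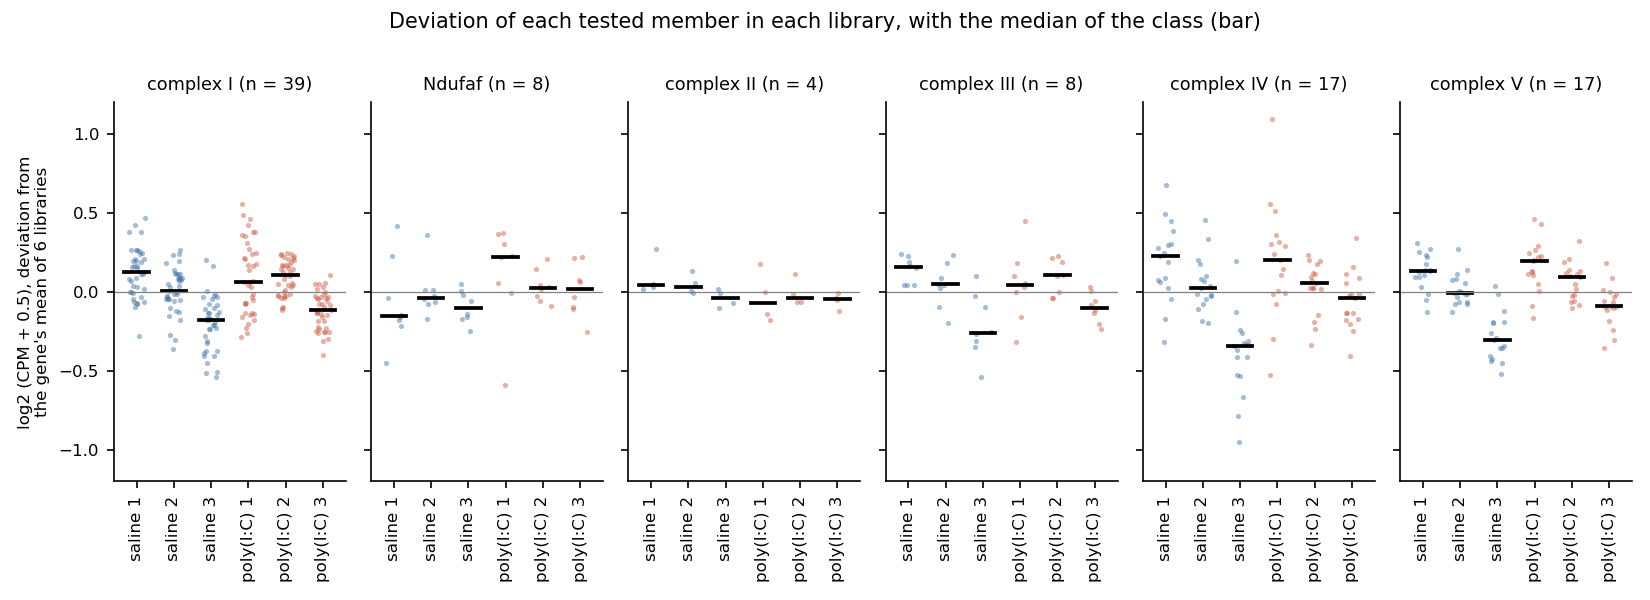
Deviation of log2 (CPM + 0.5) from the gene's mean over 6 libraries (vertical axis) for each tested member in each library (points), by class, with the class median as a bar. Saline library 3 has the lowest median in complexes III, IV, V and I, at -0.26, -0.34, -0.30 and -0.18, while the median of the 4 complex II genes stays between -0.07 and 0.04.

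Transcript length and base composition moved with these values. In saline library 3 the deviation of a member correlated with its transcript length at Spearman's rho = 0.69 over the 90 members with a length (rho = 0.06 over 13120 genes of all kinds). Over the members it was -0.145 and 0.0584 in saline libraries 1 and 2, and -0.2, -0.513 and 0.0685 in poly(I:C) libraries 1, 2 and 3. These correlations are across genes of shared libraries and carry no p. The 63 members with transcripts under 1000 bases had a median deviation of -0.31 in that library and the 27 longer ones -0.08, against -0.09 and -0.01 for the 1558 shorter and 11562 longer genes of the whole table. The part of transcript length in the low values of saline library 3 was not tested.

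GC content moved with the difference between the groups. Over the 90 members the log2 difference correlated with the GC content of the transcript at rho = -0.47, and over 13120 genes of all kinds at rho = -0.37. In the 30 members of lowest GC content (39.5 to 49.9%) the median log2 difference was 0.13, with 25 above and 5 below 0, and all genes in that GC range had 0.12. In the 30 of highest GC content (54.9 to 63.2%) the median was -0.06, with 11 above and 19 below 0, against -0.20 for all genes in that range. Poly(I:C) libraries 1 and 3 had a negative correlation of a member's deviation with GC content (rho = -0.44 and -0.56), while saline libraries 1 and 2 had a positive one (0.38 and 0.60). Saline library 3 and poly(I:C) library 2 lay between these (0.02 and 0.24). The order differed over the 13120 genes of all kinds. There rho was 0.12, 0.45 and 0.29 in saline libraries 1 to 3 and -0.39, 0.16 and -0.44 in poly(I:C) libraries 1 to 3.

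With the trend on GC content of each library taken out, which was chosen after seeing the data, Uqcrc1 went to -0.16, Ndufs7 to -0.06 and Atp5d to -0.01 on the log2 scale. Cox6a1 turned from -0.08 to 0.14 and Atp5g2 from -0.05 to 0.12. Cox7a2l, with a GC content of 49.9%, stayed at -0.42 and Ndufc1 at 0.68, and 0 members were called in either direction by edgeR. The median over all members was then 0.10.

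**Figure D4:**
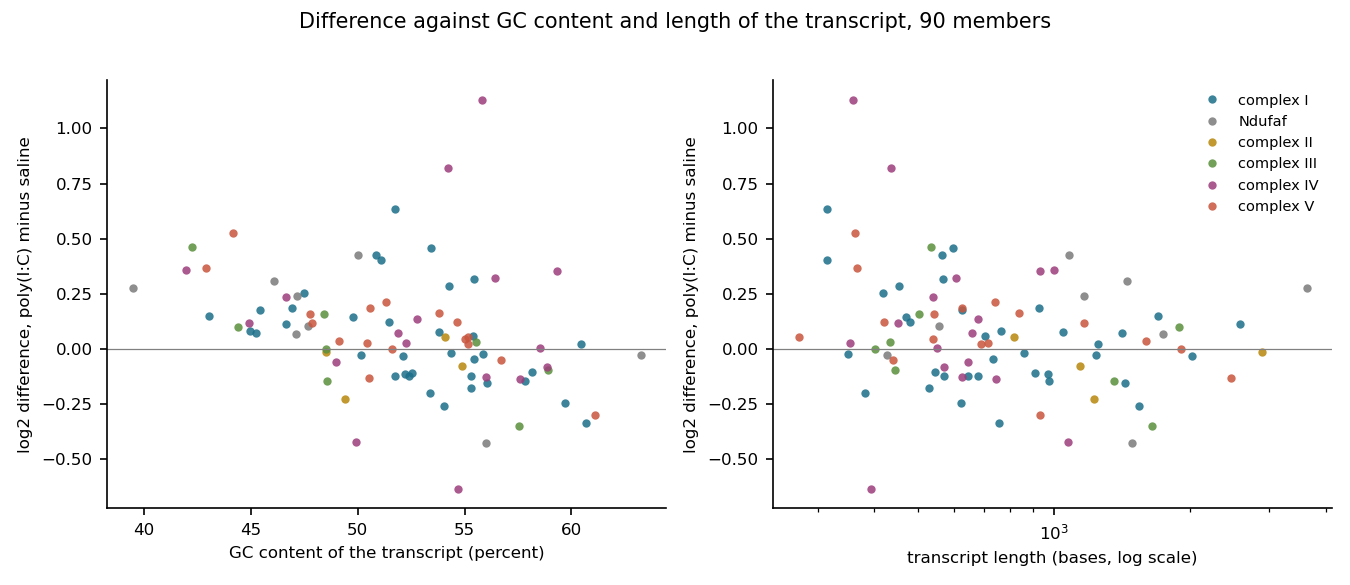
Log2 difference (poly(I:C) minus saline, vertical axis) of 90 members against the GC content of the transcript in percent (left) and its length in bases on a log scale (right), coloured by class. Members under 50% GC lie mostly above 0 and those over 57% mostly below, with rho = -0.47, while the relation with length is weaker (rho = -0.25).

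The 13 subunit genes of mitochondrial DNA, partners of the members in complexes I, III, IV and V, were all above 0 after poly(I:C), with log2 differences from 0.34 (CYTB) to 0.97 (ND6) and a median of 0.52. None was called by edgeR. Only ND1 and COX3 had an unadjusted p under 0.05 in edgeR (adjusted p = 0.209 and 0.195), and limma-voom called 2 higher. ND1, a core subunit of complex I, stood at 934, 805 and 728 CPM in saline and at 1635, 947 and 1096 CPM after poly(I:C). COX1, the catalytic subunit of complex IV, stood at 3762, 3122 and 2942 CPM against 6273, 3521 and 4311 CPM. In both genes poly(I:C) library 1 was far above the rest, and the lowest poly(I:C) library lay near the highest saline library.

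Summed, the 13 genes held 0.811, 0.753 and 0.660% of the counts in the saline libraries and 1.49, 0.821 and 0.991% in the poly(I:C) libraries. The ratio of mtDNA-encoded to nuclear-encoded counts was 1.89, 1.79 and 1.82 in saline and 3.33, 1.96 and 2.49 after poly(I:C). All poly(I:C) libraries lay above all saline libraries, which were close together. The mean ratio was 1.83 ± 0.05 against 2.60 ± 0.69 (SD, n = 3 each), a difference of 0.47 in the log2 ratio. By complex, the log2 ratio differed by 0.51 for complex I, 0.37 for complex III, 0.49 for complex IV and 0.53 for complex V. These ratios are not alike in what they count. The mtDNA side of complex III is CYTB alone. That of complex IV is mostly COX1, with a saline mean of 3275 CPM against 35.6 for COX2 and 32.6 for COX3. ATP6 and ATP8 had low levels (17.4 and 2.15 CPM in saline), so the mean saline ratio of complex V was 0.013, against 2.36 to 5.67 for the others. Each sum on its own overlapped between the groups: the mtDNA-encoded genes summed to 8534, 7520 and 6792 CPM in saline and to 14262, 8180 and 9625 CPM after poly(I:C).

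Poly(I:C) library 1, with the highest ratio, was also the library with the highest choroid plexus marker sum, 19428 CPM. Without it the median log2 difference of the 13 genes was 0.24, and with the choroid plexus marker score as a covariate it was 0.16. Poly(I:C) libraries 1 to 3 ranked alike in both, with marker sums of 19428, 7689 and 9343 CPM and ratios of 3.33, 1.96 and 2.49. This order was not particular to choroid plexus. The type I interferon genes had it too (2116, 1449 and 1653 CPM), as did the endothelial and mural, monocyte and border macrophage, and neutrophil markers. The microglial markers had the reverse order (30270, 41576 and 38793 CPM). Among the saline libraries the choroid plexus marker sum and the ratio ranked differently. Saline library 2 had the highest sum of its group, 8556 CPM, and the lowest ratio. The 13 genes also have low GC content, and with the GC trend taken out their median was 0.21. The part of any of these in the higher ratio was not tested further.

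**Figure D5:**
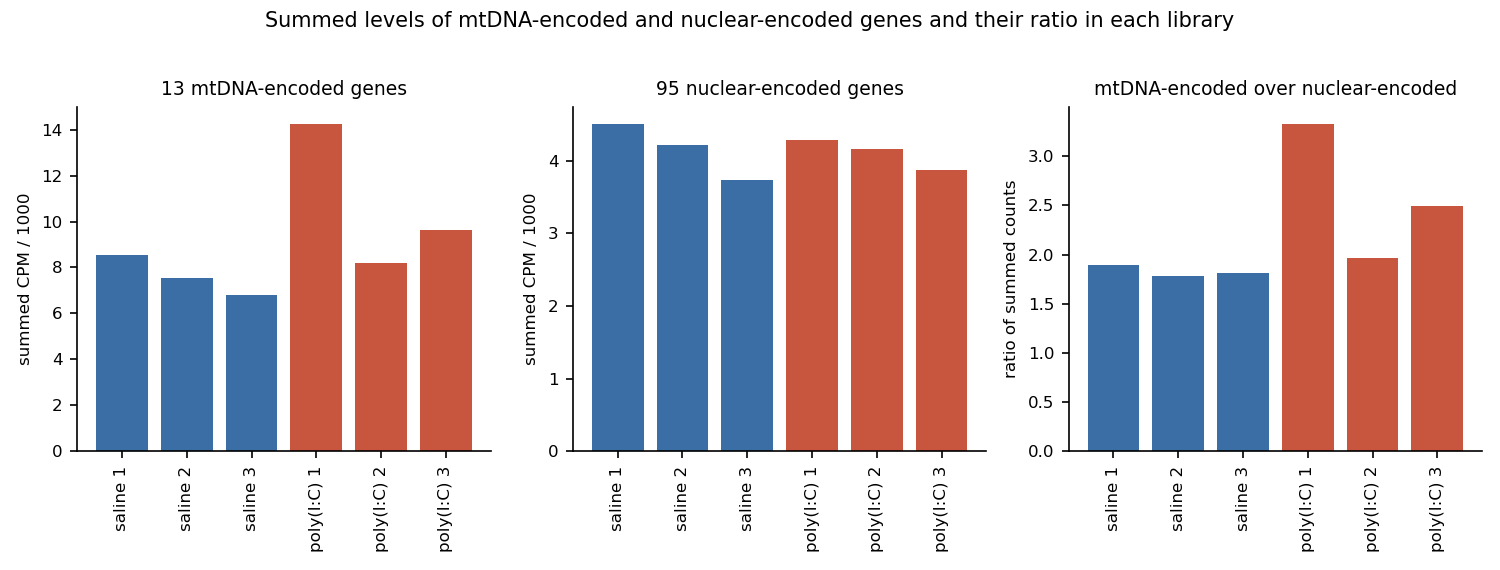
Summed CPM, with axis values to be multiplied by 1000, of the 13 mtDNA-encoded genes (left) and of the 95 nuclear-encoded members (middle) and the ratio of their summed counts (right), one bar per library from 0, saline in blue and poly(I:C) in red. The ratio is between 1.79 and 1.89 in saline and 3.33, 1.96 and 2.49 after poly(I:C), while the nuclear-encoded sums of the groups overlap.

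Other genes of the pathway, from lists set beside the members, gave no call in edgeR either. Of the lists of genes that assemble complexes I to V outside the Ndufaf family, 10, 4, 10, 22 and 4 were tested for complexes I, II, III, IV and V, and 0 were called. The complex III list also holds Cyc1, which encodes cytochrome c1. Their median log2 differences lay between -0.11 for complex V and 0.15 for complex II. Coa5, a complex IV assembly factor, stood at 89.96, 83.5 and 81.5 CPM in saline and at 116, 99.3 and 104 CPM after poly(I:C), without overlap (log2 difference 0.32, SE 0.09, edgeR adjusted p = 0.151). Of 17 electron carrier and coenzyme Q genes 0 were called, and Cycs, which encodes cytochrome c, stood at 23.5, 21.1 and 18.7 CPM against 28.2, 27.0 and 27.7 CPM, also without overlap (0.39, SE 0.11, edgeR adjusted p = 0.166).

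Of 21 regulators of mitochondrial biogenesis 0 were called. Tfb1m, a mitochondrial rRNA methyltransferase, stood at 8.09, 6.21 and 7.05 CPM in saline and at 11.3, 10.7 and 11.3 CPM after poly(I:C). All poly(I:C) libraries lay above the saline range (log2 difference 0.64, SE 0.17, edgeR adjusted p = 0.145). The 18 genes of the tricarboxylic acid cycle and pyruvate dehydrogenase had a median of -0.03 and the 19 glycolysis genes one of -0.12, with 0 called in both lists. The glycolysis genes summed to 3760.4 CPM in saline library 1, which was highest in neutrophil markers, against 2428.3 to 2752.5 CPM elsewhere. Of the 19 genes, 15 were highest there among the saline libraries. Idh3a, the catalytic subunit of NAD-dependent isocitrate dehydrogenase, lay at 0.52 and Gapdh at -0.47 (edgeR adjusted p = 0.204 and 0.202). Gapdh stood at 95.8, 63.3 and 67.8 CPM in saline and at 61.1, 52.0 and 50.3 CPM after poly(I:C). The part of neutrophils in the glycolysis values was not tested. Cmpk2, a mitochondrial nucleotide kinase known as an interferon-induced gene, stood at 8.73, 2.37 and 2.57 CPM against 41.6, 14.8 and 17.5 CPM (log2 difference 2.44, SE 0.64, edgeR adjusted p = 0.147), so that even this difference did not pass the test at the spread between these libraries.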

How the data were processed

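Gene expression was measured in 6 libraries, 3 saline and 3 poly(I:C). The authors deposited raw read counts by gene symbol in 1 table, without normalisation or pooling. The submitters' processing notes name fastp, HISAT2, HTSeq and build GRCm39, while versions, annotation and strand setting were not given in the sources used here. RNA was copied into full-length cDNA with a SMARTer kit and tagged with Nextera XT, per the labels' protocols. No molecular identifiers are mentioned, so the counts are of amplified reads, and statements on depth cover counting error only. Such libraries do not mark strand, so overlapping or antisense genes cannot be separated, and close copies may share reads.

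The main test was the quasi-likelihood F test of edgeR 4.0.16 (R 4.3.3) with filterByExpr by group, which kept 14727 of 23491 genes, TMM scaling, all 6 libraries and no covariate. Adjustment was by Benjamini-Hochberg over all genes tested, and a gene was called at an adjusted p under 0.05. The standard error is the size of the log2 difference divided by the square root of F. Alternatives used other scalings and filters, DESeq2 1.42.0, limma 3.58.1 (voom with quality weights), a replicate block, a choroid plexus score as covariate and fits without single libraries. A correction for GC content was added after seeing the data. The scripts were tested on simulated data with set changes. There edgeR recovered 2% of the 50 genes changed 1.5-fold and 41.7% of the 48 changed 2-fold. It recovered 70.8% of the 48 changed 4-fold and 81.2% of the 48 changed 8-fold. The changed genes were drawn from all genes kept by the filter, not from the members. The lack of a call alone thus does not exclude changes of 1.5-fold to 2-fold, nor larger ones, since some 4-fold and 8-fold changes were also missed. No pair of replicates was a duplicate, as their counts differed beyond sampling noise (chi-square per gene 22.2 to 124).

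The members, the 21 gene lists and the tests were chosen with earlier results of these data known. Members described are those with the 3 smallest p in each class, the 4 largest differences in each direction at a mean of at least 5 CPM, a set of well-known subunits and the tissue isoforms. From each other list the 2 smallest p and called genes may be named. Members named only for their lack of overlap or as the end of a range were chosen after their values were seen. So was any gene outside this rule (Nrf1, Gabpa and Gabpb1). Transcript lengths and GC content come from the transcript of median length in GENCODE M21 on the earlier build, matched by symbol for 90 of 93 tested members. They serve as descriptions of the gene, with no coordinates used. The values of 1 member are not reported here, although it is included in counts and medians. Promoters come from RefSeq on GRCm38.p6.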

Additional observations from a re-analysis of the deposited data

How the results depend on the processing

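Of 42 named genes (40 members, Atpif1 and AA467197), 23 kept the sign of their log2 difference in all of the 17 or 18 settings run for each and 19 turned it in at least 1. The cause of each turn was not tested. Under every setting but DESeq2 and limma-voom 0 members were called: DESeq2 called 1 lower (Cox7a2l, -0.44), and limma-voom 3 higher and 5 lower. Replicate numbers are shared by the groups, and over all genes the deviations of same-numbered libraries correlated at 0.15, -0.09 and 0.25. Since 1 of the 3 was negative, the numbers were not taken as pairs, although library 3 had the lowest member median in both groups. With the replicate number as a block, edgeR called 171 of all genes higher and 89 lower, against 130 and 11 without it, 0 members were called, and their median stayed at 0.05. Not every library correlated best with its own number. The count of all genes called also moved by more than 1.5 times with DESeq2 (577 and 566), limma-voom (1268 and 1608), without both library 1s (355 and 214) and with the choroid plexus score (47 and 0). It was 147 and 18 with no filter, and 51 to 167 and 0 to 20 when a library was left out. The Ndufaf median of 0.17 became 0.25 with total-count scaling, 0.29 with a filter of 5 CPM in 3 libraries (fewer genes tested), 0.077 in limma-voom, 0.09985 without both library 1s, 0.062 with the choroid plexus score, 0.096 with the GC correction, 0.091 with it and the block, and 0.11 to 0.24 when a library was left out. The complex II median became 0.028 with total-count scaling. The complex IV median went from -0.14 to 0.21 when a library was left out, the former without saline library 3. With GC content taken from the longest transcript, rho with the difference was -0.49 over the members. Values that turned sign follow by setting. Cox8a went to -0.017 with RLE scaling, -0.017 with DESeq2 and -0.0084 with no filter. Upper-quartile scaling gave Atp5b 0.050, Atp5g2 0.0062 and Sdha 0.036. Total-count scaling gave Atp5b 0.076, Atp5g2 0.026, Cox5a 0.021 and Sdha 0.061. The 5 CPM filter gave Atp5b 0.035 and Sdha 0.021. Limma-voom gave Atp5g1 -0.16, Cox5a 0.041, Cox8a -0.054, Ndufa4l2 -1.17 and Ndufab1 -0.015. The choroid plexus score gave Atp5g1 -0.24, Atp5g2 0.065, Atp5g3 -0.022, Cox7a2 -0.068, Cox8a -0.14, Ndufa4l2 -0.62, Ndufab1 -0.091, Sdhb 0.0061 and Sdhc -0.051. Leaving out both library 1s gave Atp5b 0.023, Atp5g1 -0.095, Atp5g2 0.14, Cox5a 0.10, Cox6a1 0.11, Cox7a1 0.027, Cox8a -0.0016, Ndufa4l2 -0.54, Ndufab1 -0.019, Sdha 0.020 and Sdhb 0.019. The GC correction gave Atp5b 0.044, Atp5g2 0.12, Cox4i1 0.060, Cox5b 0.023, Cox6a1 0.14, Ndufa4 -0.021, Ndufab1 -0.063 and Sdhb 0.043. Leaving out 1 library at a time gave ranges across 0 for Atp5b (-0.061 to 0.058), Atp5g1 (-0.13 to 0.18), Atp5g2 (-0.18 to 0.073), Atp5g3 (-0.088 to 0.18), Atpif1 (-0.039 to 0.17), Cox5a (-0.23 to 0.21), Cox6a1 (-0.22 to 0.053), Cox6a2 (-0.21 to 0.74), Cox7a2 (-0.14 to 0.25), Cox8a (-0.14 to 0.11), Ndufa4 (-0.043 to 0.24), Ndufa4l2 (-0.12 to 2.00), Ndufab1 (-0.0017 to 0.12), Sdha (-0.023 to 0.0061), Sdhb (-0.16 to 0.013) and Sdhc (-0.0022 to 0.098). Total-count scaling moved the median of all genes from 0.01 to 0.08. The isoform genes and gene copies had few counts, and their intervals reach beyond 2-fold. The part of depth in this was not tested.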
